A study of Mus musculus with 6 samples.

Results

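The clustered protocadherins are cadherin-like surface proteins encoded by a row of neighbouring genes in 3 clusters, alpha, beta and gamma, and 56 of the 24661 genes measured in mouse olfactory mucosa belonged to them. The members were taken by name: every gene called Pcdha, Pcdhb, Pcdhga, Pcdhgb or Pcdhgc followed by digits, which gave 12 alpha, 22 beta and 22 gamma genes. The C-type alpha genes Pcdhac1 and Pcdhac2 lie outside that naming rule and were kept as a comparison. All 56 passed the minimum of 1 count in some mouse, and 55 had a mean of at least 10 counts, the exception being Pcdhb2 with a mean of 9.0.

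RNA was sequenced from the whole olfactory mucosa of 6 C57BL/6-background mice at postnatal day 21, 3 of them wild-type littermates and 3 homozygous null for both Rtp1 and Rtp2 (RTP1,2DKO). In the null allele the coding region of Rtp1 was replaced and that of Rtp2 gave way to a puromycin cassette, in ES cells of a 129/B6 hybrid line. Mice carrying the allele were then backcrossed to C57BL/6, for a number of generations that the paper does not give. RTP1 and RTP2 are chaperones that help odorant receptors reach the surface of olfactory sensory neurons (OSNs), and the deletion is present in every cell of the mouse. Each library was 1 mouse, with 31125410 to 41636996 estimated counts, of which the 56 members took 0.0404 to 0.0618%. Rtp1 had 20590, 25390 and 13590 normalized counts in the wild-type mice and 90.9, 85.8 and 109 in the RTP1,2DKO mice, and Rtp2 had 8526, 9543 and 7181 against 58.2, 26.3 and 51.1, so both targeted genes followed the labels.

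In the mouse, an alpha or gamma protein is made from a variable exon with its own promoter, spliced to constant exons that all genes of the same cluster share. A beta gene is a single variable exon without shared constant exons. A neuron is known to transcribe a small set of these promoters, chosen in part by chance through CTCF and cohesin looping, while the C-type genes at the end of the alpha and gamma clusters are used more uniformly. The proteins pair across cells with their own kind, which gives neurons a surface identity, and in OSNs this identity is used when axons sort into glomeruli of the olfactory bulb.

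All 56 genes have a RefSeq position on the plus strand of chromosome 18 (GRCm38.p6). The alpha genes span chr18:36930285-37188897, the beta genes chr18:37264998-37521419 and the gamma genes chr18:37661775-37841873. The spans of alpha genes overlap, since each runs from its variable exon to the same constant exons, and the same holds for gamma genes. Pcdhgb8 is annotated as a pseudogene in RefSeq.

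Shared exons set how well a single gene can be measured here, because reads from them are divided among genes by the quantification. The 31-base words of a GENCODE M21 transcript of each gene were compared with the transcripts of all other genes quantified here. This is the word length by which kallisto was here taken to assign reads. Some of these transcripts differed in length from those quantified, as for Pcdhb14 with 8695 against 3438 bases, so the shares are approximate. Among alpha genes 29.8 to 38.5% of the words were found in no other gene (median 36.5%), and among gamma genes 32.2 to 58.3% (median 52.6%). Beta genes had 77.5 to 100% of words of their own (median 88.2%), and Pcdhb1 was the gene at 100%. Pcdhac1 and Pcdhac2 had 47.5% and 51.6%. Fold changes of single alpha and gamma genes therefore depend in part on how shared reads were divided, and how much was not tested.

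In wild-type mucosa the clusters were expressed at low and uneven levels, and among the 56 members a single gene led the beta and the gamma cluster. TPM is a level scaled to transcript length and to the same sum in each library. Pcdhb1 had 62.7 ± 21.3 TPM (SD, n = 3), the highest of the 56. It ranked 1485 among all genes in the files, above 94.0% of them. Pcdhgc3, a C-type gamma gene, followed with 17.96 ± 3.95 TPM. All other members had wild-type means from 0.162 TPM for Pcdhb2 to 6.65 TPM for Pcdhb17. Pcdhac2 lay between these groups, at 12.9 TPM over the 6 mice.

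Pcdhb1 made up 53.4 to 60.7% of the summed TPM of the beta cluster in the wild-type mice, so that this TPM sum is largely the level of 1 gene. Its part was smaller in normalized counts, at 4579, 3298 and 3238 of 9402, 7891 and 7495 in these mice. Pcdhgc3 made up 30.7 to 32.2% of the gamma TPM sum. With the C-type genes Pcdhac1 and Pcdhac2 counted, Pcdhac2 made up 20.1 to 34.8% of the alpha TPM sum in the wild-type mice. The alpha cluster had no such gene among its 12: Pcdha5, the leading gene, held 15.5 to 21.8%, and its 5.46 ± 2.55 TPM overlapped with the 5.41 ± 1.61 TPM of Pcdha3 and the 4.93 ± 1.04 TPM of Pcdha9. Pcdhb17 with 6.65 ± 1.94 TPM and Pcdhb9 with 5.30 ± 1.47 TPM could not be ordered against those either. The order of genes along the chromosome showed no strong relation to their TPM, with Spearman's rho of -0.22 over 12 alpha genes, 0.30 over 22 beta genes and -0.09 over 22 gamma genes, given as a description since the genes of a cluster share libraries and, in alpha and gamma, exons.

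**Figure D1:**
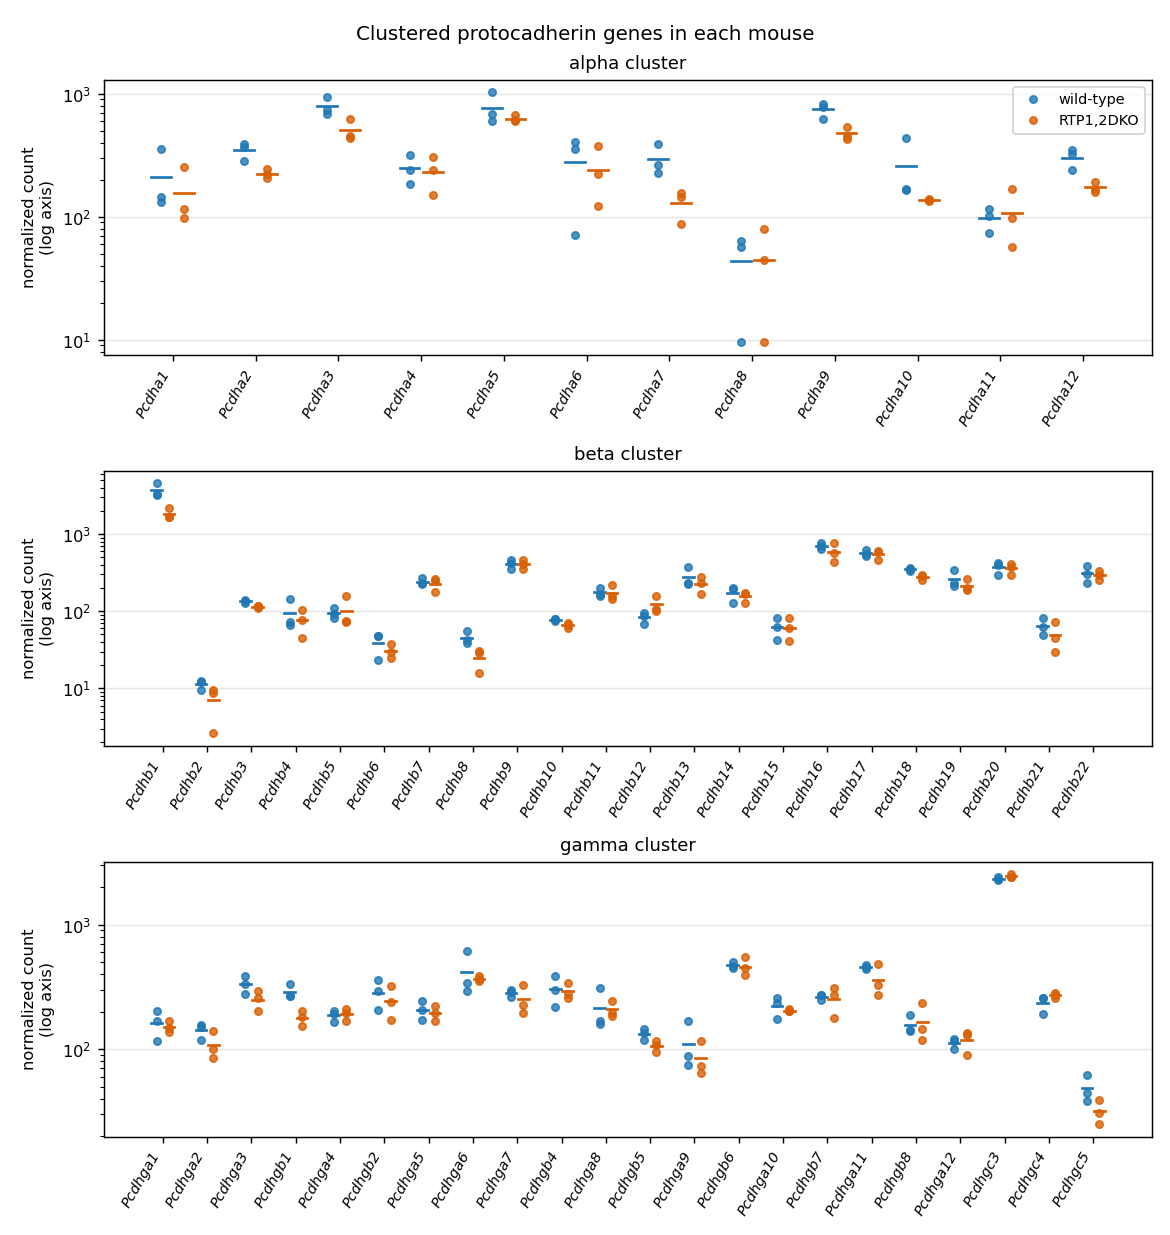
Normalized count (log axis) of each clustered protocadherin gene, ordered along the chromosome from left to right, in 3 panels for the alpha, beta and gamma clusters. Points are mice, blue for wild-type and orange for RTP1,2DKO, and the short lines are group means; Pcdhb1 and Pcdhgc3 stand above their clusters, and the groups separate for Pcdhb1 but not for Pcdhgc3.

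The alpha genes varied more between mice of the same genotype than the genes of the other clusters. The median standard deviation of log2 counts within a group was 0.45 for alpha, 0.30 for beta and 0.29 for gamma genes, against 0.24 for all genes in the members' range of mean counts. Of these genes, 20.3% exceeded the alpha median. Standard deviations above 0.5 occurred in 5 of 12 alpha, 3 of 22 beta and 1 of 22 gamma genes.

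Pcdha8 and Pcdha6 had the largest spread of the 56. Pcdha8 counted 56.6, 63.8 and 9.54 in the wild-type mice and 79.5, 44.7 and 9.60 in the RTP1,2DKO mice, with the third mouse of each genotype low. Pcdha6 counted 71.6, 408.8 and 358.0 in the wild-type mice and 378.8, 224 and 123.3 in the RTP1,2DKO mice, and here the first wild-type mouse was the lowest. At the other end, the standard deviation of Pcdhgc3 was 0.05.

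**Figure D2:**
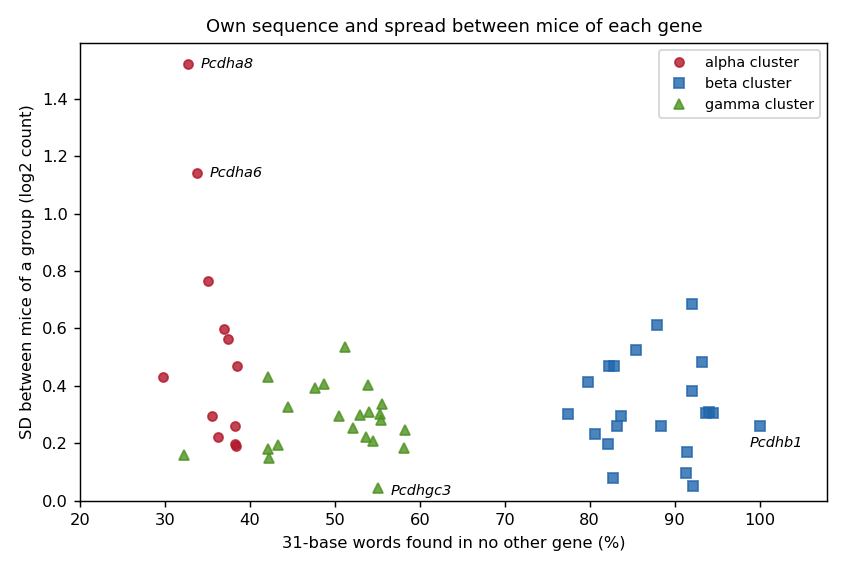
For each of the 56 genes, the percentage of 31-base words of its GENCODE M21 transcript found in no other gene (x axis) against the standard deviation of log2 counts between mice of the same genotype (y axis). Red circles are alpha, blue squares beta and green triangles gamma genes; Pcdha8 and Pcdha6 lie at the top with a share of own words within the alpha range.

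Loss of RTP1 and RTP2 was compared with the wild type to ask how the mucosa's transcripts differ without these receptor chaperones. In RTP1,2DKO, 4 clustered protocadherin genes were lower: Pcdhb1, Pcdha7, Pcdha9 and Pcdha12. In edgeR's quasi-likelihood test with Benjamini-Hochberg adjustment over all 22152 genes tested, an adjusted p under 0.05 was required, and 4 of 56 members (7.14%) passed as lower against 3.19% of all genes (3.63% in either direction). No member passed as higher, against 0.438% of all genes, and DESeq2's Wald test gave 0 as well. At an unadjusted p under 0.05 there were 9 members, all lower, against 7.43% of all genes lower and 4.7% higher. Lower point estimates were common: 48 of 56 log2 fold changes were negative (85.7%) against 47.4% of all genes. With 1 mouse left out, 37 to 51 were negative depending on the mouse, and 27 of 56 were negative in all 6 such fits. In 13 (23.2%) every RTP1,2DKO mouse lay below every wild-type mouse, against 9.24% of all genes. In 1 gene, Pcdhb12, every RTP1,2DKO mouse lay above, against 7.2% of all genes. The members were not independent of each other, because neighbouring genes share exons, promoter control and cells.

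In whole mucosa, fewer cells of a type and less RNA per cell cannot be told apart. Markers of OSNs differed between the groups, and which cells express the clustered protocadherins was not measured. Of 10 markers of mature OSNs, 9 were called lower by edgeR and 10 by DESeq2's Wald test. In all 10 every RTP1,2DKO mouse lay below every wild-type mouse. The median log2 fold change was -1.07, and the summed normalized count of the 10 ranged from 167000 to 191600 in wild-type and from 85160 to 91740 in RTP1,2DKO mice. The 4 with the smallest p were Stoml3, an OSN stomatin (-2.002), Adcy3, the odorant-responsive adenylyl cyclase (-1.41), and the channel subunits Cnga4 (-1.18) and Cngb1 (-1.09). Of 9 immature OSN markers, Gap43, a growth cone protein (0.58), and Gng8, a G protein gamma subunit (0.91), were called higher by edgeR. Of the 9, 8 had positive fold changes and 5 had an unadjusted p under 0.05 by edgeR. In 6 every RTP1,2DKO mouse lay above every wild-type mouse. The median of the 9 was 0.37, and their sums of 49160 to 60170 in wild-type and 59620 to 67430 in RTP1,2DKO mice overlapped. The Gap43 call was kept in 1 of the 6 fits that left out 1 mouse, and that of Gng8 was kept in 3. Of 5 progenitor and cycling-cell markers, 0 passed edgeR's test and 1 passed DESeq2's Wald test, and all 5 had an unadjusted p under 0.05 and every RTP1,2DKO mouse above every wild-type mouse (median 0.52, sums 4286 to 5679 and 6356 to 8621). The part of these shifts in the protocadherin values was not tested.

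Among markers of other cells, none of the 4 horizontal basal, 5 sustentacular, 6 ensheathing glia, 6 fibroblast and vessel, 4 respiratory ciliated and 5 leukocyte genes passed edgeR's or DESeq2's test, and 2 of them, an ensheathing glia and a ciliated gene, had an unadjusted p under 0.05. Of 5 olfactory bulb and brain neuron markers Gad1, which makes the transmitter GABA, fell from 186, 298 and 380.6 to 122.6, 119 and 141 (log2 fold change -1.18, adjusted p 0.021 by edgeR), a call kept in 1 of the 6 fits that left out 1 mouse. The other genes of that list did not pass: Gad2, which also makes GABA, was at 0.22 with every RTP1,2DKO mouse above every wild-type mouse, Slc6a4, the serotonin transporter, at 0.10, and Slc17a7, a vesicular glutamate transporter, at -1.27 with every RTP1,2DKO mouse below (adjusted p 0.33 by edgeR). The list summed to 525.7 to 749 in wild-type and 519.8 to 566 in RTP1,2DKO mice. Neurod6, an excitatory neuron factor in that list, had at most 11.6 counts in any mouse.

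The beta cluster differed chiefly by Pcdhb1, its first gene, at chr18:37264998-37267454 and transcribed from a single exon. Pcdhb1 had 4579, 3298 and 3238 normalized counts in the wild-type mice and 2206, 1649 and 1655 in the RTP1,2DKO mice. All 3 RTP1,2DKO mice lay below all 3 wild-type mice. The log2 fold change was -1.01 ± 0.16 (SE, n = 3 mice per group; adjusted p 0.0032 by edgeR), and it kept an adjusted p between 0.0043 and 0.026 in the 6 fits that left out 1 mouse. Its share of the beta TPM was 38.0 to 43.5% in the RTP1,2DKO mice, below each wild-type share.

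The other 21 beta genes gave 0 calls by edgeR, which is close to the background of 3.63% of all genes called. They had 1 gene at an unadjusted p under 0.05 by edgeR and a median log2 fold change of -0.23, and 0 calls in DESeq2's Wald test too. Over all 22 beta genes the median was -0.24, and it was -0.08 without the first wild-type and -0.07 without the second RTP1,2DKO mouse. Pcdhb8 had 39.1, 56.0 and 42 counts in the wild-type mice and 28.6, 15.7 and 30.9 in the RTP1,2DKO mice, groups that did not overlap (-0.89 ± 0.39, adjusted p 0.37 by edgeR). Pcdhb12 had 68.7, 95.8 and 85.6 against 102, 107 and 160.0, the only member with its groups separated upwards (0.56 ± 0.27, adjusted p 0.44 by edgeR). Pcdhb3, Pcdhb10 and Pcdhb18 were further beta genes in which every RTP1,2DKO mouse was lower, at log2 fold changes of -0.23, -0.25 and -0.34, so that with Pcdhb1 and Pcdhb8 there were 5 of 22 (22.7%, against 9.24% of all genes).

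Several well-expressed beta genes lay close to no difference. Pcdhb17 had 551, 621 and 519 counts in the wild-type and 602, 468 and 591 in the RTP1,2DKO mice (-0.03 ± 0.15). Pcdhb9 had 357, 469 and 419.5 counts against 405, 356 and 468 (-0.02 ± 0.17). Pcdhb5, with 91.8, 110.5 and 82.9 against 157, 74.2 and 72.6, had its first RTP1,2DKO mouse above all others (0.08 ± 0.32).

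In the alpha cluster, 3 of 12 genes fell (25.0%, against 3.19% of all genes), and the median log2 fold change was -0.54 against 0.02 for all genes tested, or -0.68 to -0.42 with 1 mouse left out. In 6 of 12 genes (50%, against 9.24% of all genes), Pcdha2, Pcdha3, Pcdha7, Pcdha9, Pcdha10 and Pcdha12, every RTP1,2DKO mouse was below every wild-type mouse. These are alternative first exons of 1 shared transcript body, so that they differ in the recognition part of the protein and carry the same cytoplasmic tail.

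Pcdha7 had 389, 264 and 227 counts in the wild-type mice and 146, 87.1 and 156 in the RTP1,2DKO mice. The groups were apart, with a log2 fold change of -1.18 ± 0.27 (adjusted p 0.027 by edgeR). Pcdha9 had 832, 627 and 786 against 432, 457 and 538, again without overlap (-0.65 ± 0.15, adjusted p 0.036 by edgeR). Pcdha12, the last of the 12, had 240.2, 346 and 323 against 167, 160.1 and 193 (-0.80 ± 0.20, adjusted p 0.043 by edgeR). In all 3 the lowest wild-type mouse stayed above the highest RTP1,2DKO mouse.

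For these alpha genes, leaving out 1 mouse at a time kept the direction in all 6 fits but the call in only 1 of 6, Pcdha7 without the third, Pcdha9 without the second and Pcdha12 without the first wild-type mouse. The adjusted p ranged from 0.022 to 0.13 for Pcdha7, from 0.024 to 0.15 for Pcdha9 and from 0.021 to 0.18 for Pcdha12 in edgeR's quasi-likelihood test.

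The remaining alpha genes did not pass. Pcdha3 had 946, 687 and 738 counts in the wild-type mice and 440.1, 457 and 622 in the RTP1,2DKO mice (-0.64 ± 0.17, adjusted p 0.074 by edgeR), and it passed in DESeq2's Wald test (adjusted p 0.021). Pcdha10 had 169, 437 and 166 against 134, 136 and 140.0 (-0.92 ± 0.33, adjusted p 0.23 by edgeR). Its estimate was -0.30 without the second wild-type mouse, which held the high value.

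Pcdha5, the leading alpha gene by TPM, had 686, 1030 and 600.0 counts against 673, 596 and 609, with overlapping groups (-0.30 ± 0.19, adjusted p 0.60 by edgeR), and its estimate was -0.04 without the second wild-type mouse, the highest of the 6. Pcdha11 was the only alpha gene with a positive estimate, with 116, 74.4 and 101 counts against 169, 56.8 and 98.5 (0.14 ± 0.36, adjusted p 0.93 by edgeR), and its groups overlapped widely.

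The C-type alpha genes, spliced to the same constant exons, were not lower. Pcdhac1 had 388, 491 and 395 counts in the wild-type and 492, 392 and 356 in the RTP1,2DKO mice (-0.04 ± 0.17). Pcdhac2 had 2677, 1374 and 1605 against 2370.0, 2293 and 2637 (0.37 ± 0.20, adjusted p 0.53 by edgeR). The first wild-type mouse was the highest of the 6 for Pcdhac2, and without it the estimate was 0.71 ± 0.13 with an adjusted p of 0.011 by edgeR, so that this gene's call turned on 1 mouse.

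No gamma gene passed the test in either direction by edgeR. With 3.63% of all genes called, 0 of 22 is close to the background. At an unadjusted p under 0.05 there was 1, Pcdhgb1, which DESeq2's Wald test called lower (adjusted p 0.039). The median log2 fold change was -0.11, and 17 of 22 estimates were negative. That median ranged from -0.19 without the third to -0.05 without the first wild-type mouse, and it was -0.17 without the third RTP1,2DKO mouse. Pcdhgb1 had 268, 332 and 266 counts in the wild-type mice and 203, 153 and 182 in the RTP1,2DKO mice, without overlap (-0.69 ± 0.19, adjusted p 0.081 by edgeR). The other gamma gene without overlap was Pcdhgb5 (-0.33 ± 0.22), giving 2 of 22 (9.09%, against 9.24% of all genes).

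By type, the 12 Pcdhga genes had a median log2 fold change of -0.14 and the 7 Pcdhgb genes -0.06. Pcdhga6 had 611.5, 337 and 292 counts against 354.5, 365 and 383, with the first wild-type mouse far above the rest (-0.17 ± 0.24). Pcdhgb6, among the better expressed, had 467, 451 and 502 against 447, 545 and 390.2 (-0.04 ± 0.16). In both genes the groups overlapped.

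The C-type gamma genes followed no common direction. Pcdhgc3 had 2409, 2273 and 2304 counts in the wild-type mice and 2388, 2543 and 2430.0 in the RTP1,2DKO mice, overlapping and close together (0.08 ± 0.10, adjusted p 0.86 by edgeR). Pcdhgc4 had 258, 190.1 and 256 against 274.5, 281 and 256 (0.21 ± 0.18). Pcdhgc5, at 44.2, 38.6 and 62.5 against 39.2, 30.8 and 25.0, had the lowest level of the gamma cluster. Its log2 fold change was -0.63 ± 0.37 (adjusted p 0.58 by edgeR).

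**Figure D3:**
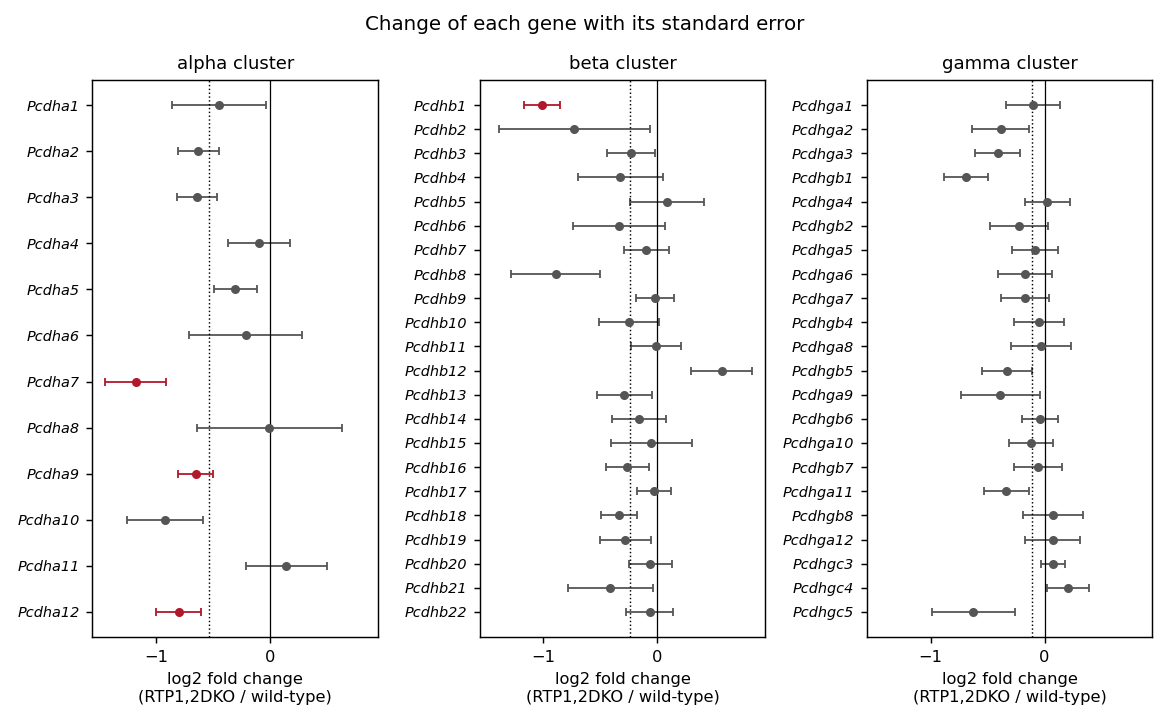
Log2 fold change (RTP1,2DKO over wild-type) of each gene with its standard error, one panel per cluster, genes ordered along the chromosome from top to bottom. Red marks an adjusted p under 0.05 (Pcdha7, Pcdha9, Pcdha12 and Pcdhb1), the solid line is no difference and the dotted line is the median of the cluster, at -0.54 for alpha, -0.24 for beta and -0.11 for gamma.

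Summed over its genes, the alpha cluster was lower in RTP1,2DKO, the gamma cluster was not apart, and the beta cluster was lower through Pcdhb1. These sums are values without a test, since the genes were chosen as a group. The alpha sum was 4475, 4791 and 3907 normalized counts in the wild-type mice and 3360.0, 2670.0 and 3135 in the RTP1,2DKO mice, a difference of -30.4% with no overlap (log2 ratio -0.52, SD within groups 0.16). The beta sum was 9402, 7891 and 7495 against 6822, 5174 and 5921, also without overlap (-0.47, SD 0.19). The gamma sum was 7794, 7016 and 7242 against 7134, 6884 and 6815, with overlap (-0.08, SD 0.06).

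Which genes are counted decided 2 of these. Without Pcdhb1 the beta sum was 4823, 4593 and 4257 against 4616, 3525 and 4266, with overlap and a log2 ratio of -0.14. With Pcdhac1 and Pcdhac2 added, the alpha sum was 7540.0, 6656 and 5906 against 6223, 5354 and 6129, with overlap and a log2 ratio of -0.18. Of the alpha sums, only that of 14 genes does not depend on how reads from the alpha constant exons were divided, so the separation of the 12 alpha genes concerns their share within the alpha transcripts as quantified. Without Pcdhgc3 the gamma log2 ratio was -0.16, with overlap.

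Within each mouse, ratios between clusters need no scaling between libraries. The alpha sum over the gamma sum was 0.540 to 0.683 in wild-type and 0.388 to 0.471 in RTP1,2DKO mice, with no overlap. The alpha sum over the beta sum without Pcdhb1 was 0.918 to 1.04 against 0.728 to 0.757, also apart. Over the whole beta sum it was 0.476 to 0.607 against 0.493 to 0.529 and overlapped. The beta sum without Pcdhb1 over the gamma sum was 0.588 to 0.655 against 0.512 to 0.647 and overlapped. All these alpha sums are those of the 12 genes, so the ratios that use them depend on how reads from the alpha constant exons were divided. The alpha sum of 14 genes, which does not, overlapped between the groups (log2 ratio -0.18). The separation of these ratios therefore does not show a lower total of alpha transcripts. These ratios, too, are values without a test.

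**Figure D4:**
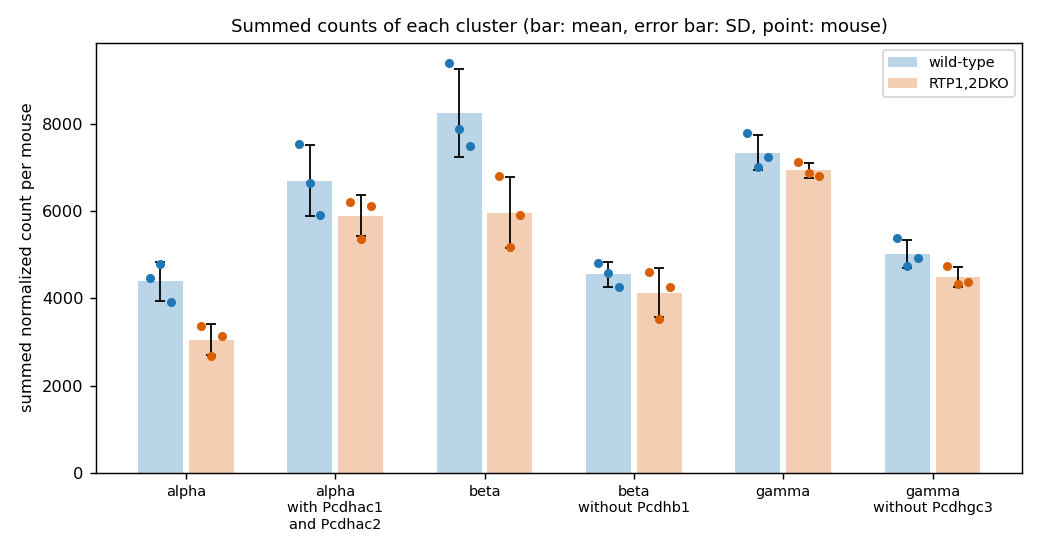
Summed normalized count per mouse of the alpha, beta and gamma clusters and of the same clusters with the C-type alpha genes added, without Pcdhb1 or without Pcdhgc3. Bars are means of 3 mice, error bars SD and points mice, blue for wild-type and orange for RTP1,2DKO; the groups are apart for alpha and beta and overlap in the other 4 sums.

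Genes that act on or with these proteins passed neither edgeR's test nor DESeq2's Wald test. Of 13 regulators of protocadherin promoters, among them the boundary factor Ctcf (-0.08 ± 0.11) and Smchd1, a silencing factor at the clusters (0.24 ± 0.13), 0 were called and 0 had an unadjusted p under 0.05, with log2 fold changes from -0.16 to 0.24. At 3.63% of all genes called, a list of this length without a call is close to the background. Of 14 partners and processing enzymes, among them the kinase Fyn (0.05 ± 0.11) and the sheddase Adam10 (0.14 ± 0.11), 0 were called and 0 had an unadjusted p under 0.05, with a range of -0.18 to 0.18, and the same background applies. Of 15 genes beside or within the clusters' stretch of the chromosome, 0 were called by edgeR, against 3.63% of all genes and again close to the background. DESeq2 called 1 of the 15, and 2 had an unadjusted p under 0.05 by edgeR. The largest estimate upwards there was that of Hdac3, a histone deacetylase (0.42 ± 0.13, adjusted p 0.12 by edgeR), and Diaph1, an actin regulator, was at -0.06 ± 0.11.

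The protocadherins outside the clusters, single genes on several chromosomes that include known axon guidance molecules of sensory neurons, moved in both directions. Of 12, 2 were called lower and 2 higher by edgeR, against 3.19% and 0.438% of all genes. Pcdh9 had 1140, 1111 and 949 counts in the wild-type and 531, 495 and 469 in the RTP1,2DKO mice (-1.10 ± 0.13, adjusted p 5.1e-04 by edgeR). Pcdh10, an adhesion molecule linked to OSN axon sorting, had 1504, 1508 and 1168 against 880.2, 786 and 746 (-0.79 ± 0.14, adjusted p 0.0052 by edgeR). In both genes all RTP1,2DKO mice were below all wild-type mice, which held for 3 of the 12 against 9.24% of all genes.

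Pcdh11x had 366, 331 and 302 counts in the wild-type mice and 890.3, 635 and 766 in the RTP1,2DKO mice (1.20 ± 0.16, adjusted p 0.0010 by edgeR). Pcdh8, an activity-regulated protocadherin of synapses, had 644, 640 and 747 against 944, 1226 and 1013 (0.65 ± 0.14, adjusted p 0.021 by edgeR). Both were higher in every RTP1,2DKO mouse than in every wild-type mouse, which held for 3 of the 12 against 7.2% of all genes. Pcdh8 was called in 2 of the 6 fits that left out 1 mouse.

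**Figure D5:**
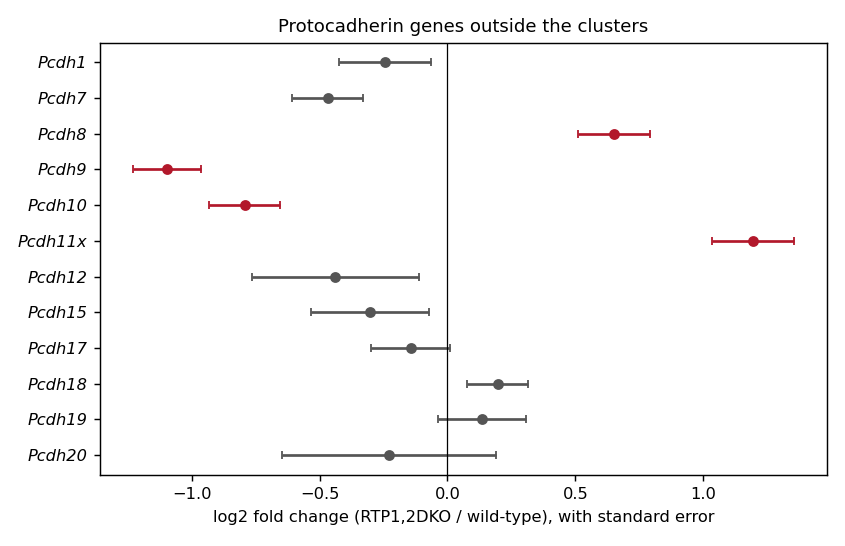
Log2 fold change (RTP1,2DKO over wild-type) with standard error of 12 protocadherin genes outside the clusters. Red marks an adjusted p under 0.05: Pcdh9 (-1.10) and Pcdh10 (-0.79) were lower, and Pcdh11x (1.20) and Pcdh8 (0.65) were higher.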

How the data were processed

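The 6 deposited tables hold, per transcript, the estimated counts and TPM that the authors obtained with kallisto from stranded libraries of whole olfactory mucosa (2 males and 1 female per genotype, sex-matched littermates), against UCSC mouse transcripts (mm10) with extended odorant receptor annotations; its version is not given in the sources used here. The authors' TPM divides deposited estimated counts by transcript length and by the library total, and the share of counts on Bpifb9b alone ranged from 4.8 to 13.7% between mice, so TPM was used here only for levels between genes.

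Estimated counts were summed per gene (1 transcript per member) and rounded. The 22152 genes reaching 1 count in any mouse were fitted together with edgeR 4.0.16 (glmQLFit, glmQLFTest; genotype only) using DESeq2 1.42.0 median-of-ratios size factors (0.904 to 1.14), in R 4.3.3, with Benjamini-Hochberg adjustment. Normalized counts are counts over the size factor. SE is the log2 fold change over the square root of F. Within-group SD used a pseudocount of 0.5. Precision is set by 3 mice per group. The fit was tested on simulated counts. Python 3.11.15 computed sums. Words of 31 bases came from GENCODE M21 transcripts, Pcdha10 being matched by position.

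The genes named are those called, the 3 highest by TPM and the 2 largest changes each way per cluster, the C-type genes, and called members of fixed lists (otherwise 1 or 2 defining members); Pcdha2, Pcdha6, Pcdha8, Pcdhb2, Pcdhb3, Pcdhb10, Pcdhb18, Pcdhgb5, Pcdhgb8, Smchd1, Adam10, Hdac3, Neurod6, Gad2, Slc6a4 and Slc17a7 were named after their values were seen. Members and lists were chosen with earlier results of these data known. Alternatives were other size factors, a count filter, DESeq2, a replicate block, TPM, leaving out each mouse and, added after seeing the data, other gene sets in the sums. No sequences are reported here.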

Additional observations from a re-analysis of the deposited data

How the results depend on the processing

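Pcdhb1, Pcdha7, Pcdha9 and Pcdha12 were also called lower with TMM factors, with genes of a mean of at least 10 counts and with the replicate block, and DESeq2's Wald test called 6 members, adding Pcdha3 and Pcdhgb1. Without 1 mouse, 1 to 2 members were called lower, Pcdhb1 in all 6 fits, and 0 were called higher in every fit. Over the whole table, calls were 707 lower and 97 higher, 742 and 150 with the block, 868 and 199 with DESeq2, and as few as 483 and 41 without 1 mouse, where fewer samples enter. The replicate numbers were not taken as pairs, because the labels do not say that they mark littermates. The values do not speak against such pairs. Deviations of same-numbered mice correlated at 0.132, 0.171 and 0.091 over 18156 genes, and 5 of 6 mice correlated best with their own number. With the block the SE of Pcdhb1 was 0.099, against 0.16 without it. The block changed no member's call, and among the other genes named it ended that of Gap43 (adjusted p 0.059).

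From TPM, the log2 ratios of the cluster sums were -0.77 for alpha, -0.80 for beta and -0.32 for gamma, on a scale whose median over genes was itself -0.22, and relative to that median they were -0.55, -0.57 and -0.10. With Pcdhac1 and Pcdhac2 the alpha ratio was -0.18, without Pcdhb1 the beta ratio was -0.14 and without Pcdhgc3 the gamma ratio was -0.16, through the genes counted. Without 1 mouse the ratios ranged from -0.60 to -0.44 for alpha, -0.57 to -0.36 for beta and -0.11 to -0.04 for gamma.

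In at least 1 of the 6 fits without 1 mouse the sign turned for 26 of 56 members (5 alpha, 9 beta and 12 gamma genes), 0 of them called. Among the genes named by rule, including the C-type Pcdhac1, the sign turned for Pcdha11 (-0.33 to 0.46), Pcdhac1 (-0.18 to 0.076), Pcdhb17 (-0.093 to 0.081), Pcdhb5 (-0.37 to 0.27), Pcdhb9 (-0.13 to 0.078), Pcdhga6 (-0.37 to 0.22) and Pcdhgb6 (-0.18 to 0.066). Gad1 and Gap43 were called in 1, and Gng8 in 3, of the 6 fits without 1 mouse. With 3 mice a group, an absence of a call does not show equal levels, and for Pcdhb2, with a mean of 9.0 counts, no difference could be told at this depth. The alternative of testing single transcripts was not run, since each member has 1 transcript.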
